A study of Mus musculus with 6 samples.

Results

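Caveolae and the related openings of capillary endothelium were followed through 8 genes chosen by name: the caveolins Cav1 and Cav2, the diaphragm gene Plvap, the paralogs Ehd1, Ehd2, Ehd3 and Ehd4, and Pacsin2. All 8 had a value among the 22180 genes that the arrays measured with an unambiguous symbol, each through its probe with the highest mean. The samples were 3 of YFP-positive and 3 of YFP-negative bone marrow LSK cells, meaning cells without mature blood lineage markers that carry Sca-1 and Kit. Both populations came from C57Bl6 mice with a tamoxifen-inducible Cre recombinase, Tg(Cdh5-Cre/ERT2), and a YFP reporter at the Rosa26 locus, given tamoxifen on days 1, 2 and 3 after birth and taken at postnatal day 27. Cre stood under the promoter of the VE-cadherin gene Cdh5, so a YFP-positive cell is one in which that promoter, or that of a cell it descends from, was active during induction. YFP-negative cells carried the same alleles and had the same treatment, and may include cells that escaped recombination. Whether a replicate stands for an animal or a pool is not in the labels, so p-values measure only the spread among these samples, part of which may be technical.

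Caveolae are small flask-shaped pits of the plasma membrane, abundant in endothelium, fat cells and smooth muscle. Caveolins embed in the membrane and cavins coat them from the cytosol, while PACSIN2 bends the membrane and EHD2, an ATPase, holds the pit at the surface. PLVAP forms the thin diaphragms that close endothelial fenestrae, transendothelial channels and the necks of some caveolae, and it is a classical marker of fenestrated and sinusoidal vessels. The other EHD proteins act mainly on recycling endosomes, the route by which receptors return to the surface.

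Levels are the deposited log2 values, and a difference is the YFP-positive mean less the YFP-negative mean on that scale, with the moderated standard error (SE) of limma and Benjamini-Hochberg adjustment over all 22180 genes. Cdh5, the gene whose promoter drives Cre, measured 11.6, 11.8 and 11.3 on the YFP-positive arrays (replicates 1, 2 and 3), and 5.40, 4.55 and 3.71 on the YFP-negative ones. The median gene lay between 3.88 and 3.95 on the 6 arrays. A level near or below that cannot be told from background, so folds over such a level may be too small.

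Marker genes of the cells that the gate could hold were measured on the same arrays. Of 13 endothelial markers, 12 rose with limma, and their summed level (the sum of the values on the linear scale) ran from 8582 to 11346 in YFP-positive and from 379 to 793 in YFP-negative arrays. Of 9 genes of the LSK gate and of leukocytes, 4 fell, with sums of 738 to 1962 in YFP-positive and 3110 to 3680 in YFP-negative arrays. Kit, which defines the gate, measured 6.56 to 7.06 in YFP-positive and 7.57 to 7.96 in YFP-negative arrays, and Ptprc, which encodes the leukocyte protein CD45, measured 6.52, 6.95 and 9.52 in YFP-positive and 9.23 to 9.37 in YFP-negative arrays. The unmoderated model called 8 of the 13 endothelial genes higher and 1 of the 9 gate and leukocyte genes lower. Stroma, smooth muscle and fat can also hold caveolae. The 13 stromal, pericyte and smooth muscle genes summed to 251 to 464 in YFP-positive and 224 to 254 in YFP-negative arrays, and the 5 adipocyte genes to 69.6 to 80.4 in YFP-positive and 55.2 to 59.4 in YFP-negative arrays. Of those 18 genes limma called 0 (at an unadjusted p under 0.05 there were 4 higher and 1 lower, while the unmoderated model also called 0). No value on these arrays was 0, but Pdgfra, Des, Dcn, Rgs5, Lep, Cidec and Retn lay below the median gene on all 6. Cxcl12, a chemokine of marrow stroma, measured 5.18, 6.82 and 7.63 in YFP-positive arrays and 4.25 to 5.04 in YFP-negative ones, without passing (limma, adjusted p = 0.200). Adipoq, the adipocyte hormone adiponectin, measured 4.25 to 4.87 in YFP-positive and 3.42 to 3.89 in YFP-negative arrays, without passing either (limma, adjusted p = 0.0658). Lepr, a receptor of marrow stroma, measured 3.72, 6.02 and 4.62 in YFP-positive arrays and 2.84 to 3.00 in YFP-negative ones. It did not pass (limma, adjusted p = 0.143). Of the 18 stromal and adipocyte genes, Cxcl12, Lepr, Dcn, Adipoq and Lep lay wholly higher in YFP-positive arrays and Pdgfrb wholly lower. Of all genes tested, 10.8% lay wholly higher. Summed levels of the 8 neutrophil granule genes overlapped (11017 to 22119 in YFP-positive and 5075 to 19112 in YFP-negative arrays), as did those of the 5 megakaryocyte genes (184 to 311 in YFP-positive and 214 to 288 in YFP-negative arrays) and the 4 erythroid genes (152 to 413 in YFP-positive and 150 to 257 in YFP-negative arrays). Those of the 9 macrophage genes (1223 to 1492 in YFP-positive and 154 to 291 in YFP-negative arrays) did not, which rested on Vcam1, also an endothelial gene, with 9.88 to 10.4 in YFP-positive and 4.01 to 4.06 in YFP-negative arrays. The 4 B lymphocyte genes summed to 39.3 to 47.3 in YFP-positive and 66.3 to 83.0 in YFP-negative arrays. What part the mix of cells has in the results below was not tested, and in bulk samples fewer cells of a type and less RNA per cell cannot be told apart.

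Of the 8 genes, 3 rose in YFP-positive cells, Plvap, Ehd2 and Cav1, and 5 did not pass an adjusted p of 0.05. Of all genes tested, 2.88% rose and 4.84% passed in either direction. The count of 3 was 0 in a model without moderation of the variance, where 145 of all genes rose. When single arrays were dropped it was 1 to 4, with 1 without YFP-positive replicate 1, YFP-negative replicate 1 or YFP-negative replicate 2. The groups did not overlap for 4 of the 8, all higher in YFP-positive cells, where 10.8% of all genes lay wholly higher. The median difference of the 8 was 1.27, and that of all genes -0.01. The 8 were chosen with earlier results of these samples known, so these counts describe them only.

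**Figure D1:**
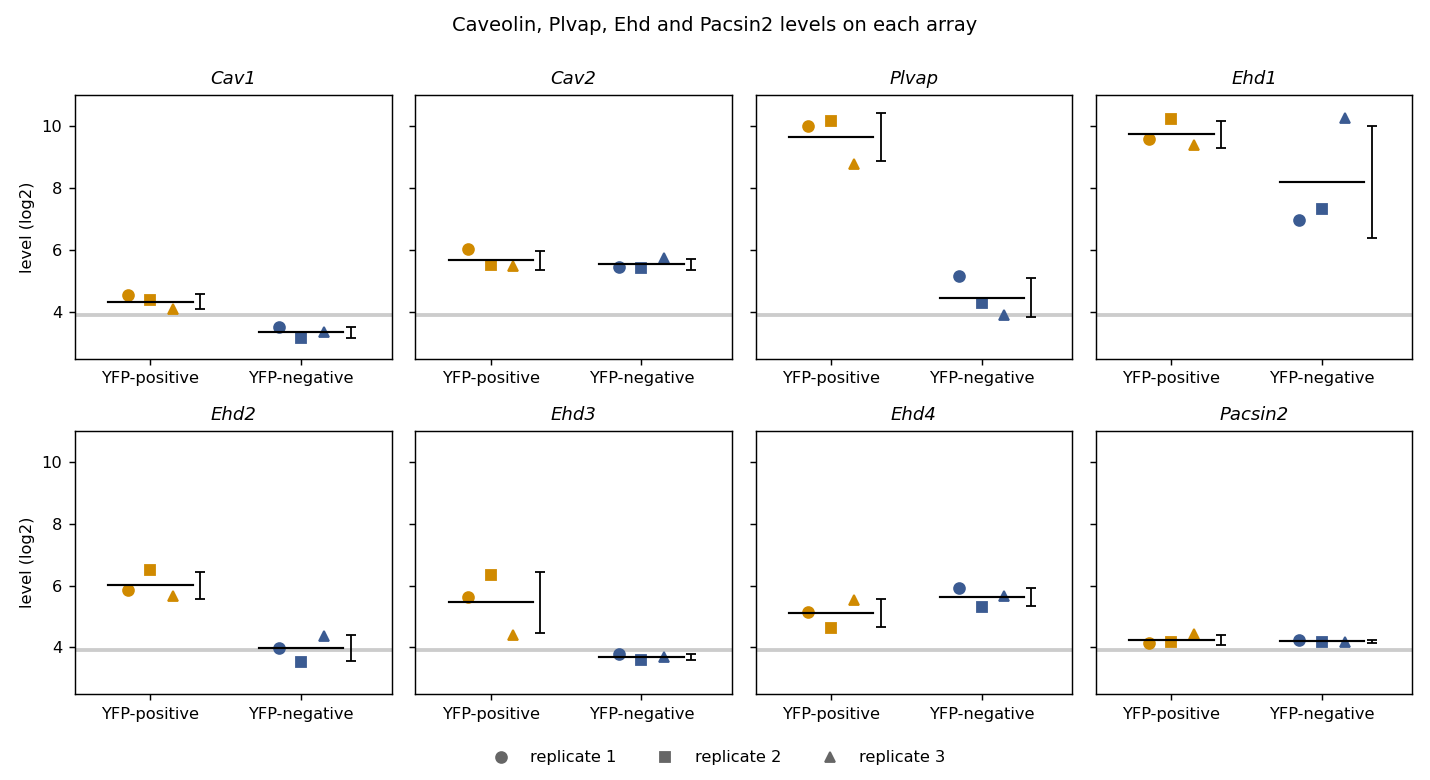
Log2 level (vertical axis) of each of the 8 genes on every array, YFP-positive at the left and YFP-negative at the right of each panel. Symbols are replicates, the long line is the mean, the bar beside it is 1 SD (n = 3), and the grey band is the range of the arrays' median gene (3.88 to 3.95). Plvap separates widest, Ehd1 has a YFP-negative array among the YFP-positive ones, and Pacsin2 lies near the grey band throughout.

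Plvap had the largest difference of the 8. It measured 10.0, 10.2 and 8.77 on the YFP-positive arrays (replicates 1, 2 and 3), against 5.16, 4.30 and 3.92 in the YFP-negative replicates. Every YFP-positive array lay above every YFP-negative array, and YFP-positive replicate 3 was the lowest of its population. The mean of the YFP-positive arrays was 9.65 ± 0.77 and that of the YFP-negative arrays 4.46 ± 0.63 (SD, n = 3 each). They differed by 5.19 ± 0.47 (SE), which is 36.5-fold (limma, adjusted p = 0.00388). Plvap stood at percentiles 98.8, 98.9 and 96.8 of all genes on the YFP-positive arrays, and at percentiles 72.3, 59.0 and 50.6 on the YFP-negative ones. It passed whichever array was dropped, with adjusted p = 0.00271 to 0.0253 over the 6 fits. The unmoderated model did not call it (adjusted p = 0.0678).

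The genes with the profile most like that of Plvap over the 6 arrays were Tfpi, an inhibitor of coagulation made by endothelium, Nfib, a transcription factor, and Clec14a, an endothelial lectin-like receptor. Likeness was the root mean square difference of profiles, each centred on its own mean, over 19375 genes, and it was 0.33, 0.38 and 0.38 on the log2 scale. Because these genes were picked on the same arrays, their separation between populations follows from the choice. Tfpi measured 10.0, 10.1 and 9.61 in YFP-positive and 5.56, 5.03 and 4.22 in YFP-negative arrays. Clec14a, at 8.05, 8.25 and 6.50 in YFP-positive arrays and 3.55, 3.18 and 2.5 in YFP-negative ones, was also lowest in replicate 3 of both populations.

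Cav1 and Cav2 encode the caveolins outside striated muscle. Caveolin-1 is needed for caveolae to form, and caveolin-2 joins it in mixed oligomers. In the RefSeq gene table Cav2 is the protein-coding neighbour just before Cav1 on chromosome 6. The 250 bases before the annotated starts of both genes are shown because the neighbours gave different calls. They are from RefSeq promoters of build GRCm38.p6, on the gene's strand, with GGAA and its complement TTCC, the core that ETS transcription factors bind, in capitals.
Cav1 upstream start, chr6:17306085-17306334, plus strand: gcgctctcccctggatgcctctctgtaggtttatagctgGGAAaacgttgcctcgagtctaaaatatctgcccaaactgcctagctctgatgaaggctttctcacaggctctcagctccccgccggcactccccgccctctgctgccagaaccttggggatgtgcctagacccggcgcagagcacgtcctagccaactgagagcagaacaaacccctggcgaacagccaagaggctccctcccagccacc
Cav1 downstream start, chr6:17307390-17307639, plus strand: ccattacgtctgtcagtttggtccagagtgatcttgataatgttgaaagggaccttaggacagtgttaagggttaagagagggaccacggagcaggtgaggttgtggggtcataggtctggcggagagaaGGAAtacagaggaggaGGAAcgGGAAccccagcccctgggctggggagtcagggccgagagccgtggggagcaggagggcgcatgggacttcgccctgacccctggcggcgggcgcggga
Cav2, chr6:17280935-17281184, plus strand: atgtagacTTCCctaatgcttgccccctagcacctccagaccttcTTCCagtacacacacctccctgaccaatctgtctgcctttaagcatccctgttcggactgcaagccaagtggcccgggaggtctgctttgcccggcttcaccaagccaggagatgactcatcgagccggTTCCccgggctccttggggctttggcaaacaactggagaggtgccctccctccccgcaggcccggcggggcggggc
GGAA or TTCC occurred 1 time before the upstream start of Cav1, 3 times before its downstream start and 3 times before Cav2. Among 32851 such windows of mouse starts, 93.4% hold the core, with a median of 3 matches, so its presence sets neither gene apart. TATAAA, searched on both strands, had 1 match before the upstream Cav1 start and none in the other windows shown here, and 12.4% of all windows hold it.

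Cav1 rose from a low level. It measured 4.54, 4.39 and 4.09 on the YFP-positive arrays, against 3.52, 3.16 and 3.37 in the YFP-negative replicates. The groups did not overlap, and all YFP-negative values lay below the median gene of their array. Its mean was 4.34 ± 0.23 over the YFP-positive and 3.35 ± 0.18 over the YFP-negative arrays (SD, n = 3 each), which is 0.99 ± 0.16 or 1.99-fold apart (limma, adjusted p = 0.0282). On the YFP-positive arrays Cav1 stood between percentiles 53.8 and 62.2 of all genes, and on the YFP-negative arrays between percentiles 28.3 and 39.0. The YFP-positive values thus lay little above the median gene, so both populations were near the level taken as background. When single arrays were dropped in turn, the call held only without YFP-positive replicate 3 and was lost in the other 5 fits (adjusted p = 0.0220 to 0.0964 over all 6), and it was lost in the unmoderated model (adjusted p = 0.127).

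Cav2 measured 6.02, 5.52 and 5.47 in YFP-positive arrays, against 5.47, 5.41 and 5.74 in YFP-negative arrays. The values were interleaved. The difference was 0.13 ± 0.19 with a 95% interval of -0.33 to 0.59 (limma, adjusted p = 0.813). The difference between Cav1 and Cav2 was not tested. The profiles most like Cav1 were those of Tpm1, a tropomyosin of actin filaments (difference 0.91, adjusted p = 0.0337), Tnn, a tenascin of the matrix (0.98, adjusted p = 0.0548), and Rab11fip3, an effector of the recycling GTPase RAB11 (0.84, adjusted p = 0.0585). Their root mean square differences from Cav1 were 0.08, 0.09 and 0.10. Being picked for likeness to Cav1 on these same arrays, they have similar differences by construction. Dropping YFP-positive replicate 1 or 2, or YFP-negative replicate 2 or 3, ended the call of Tpm1 (adjusted p up to 0.106).

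Cavins form the outer layer of the coat. Of 7 other caveolar coat genes, 2 rose, Cavin2 and Cavin3, and 5 did not pass, with a median difference of 0.12. Of all genes, 2.88% rose and 10.8% lay wholly higher in YFP-positive arrays. Cavin2, which helps to shape caveolae in some endothelia, measured 9.37, 9.77 and 8.02 in YFP-positive arrays, against 4.73, 4.71 and 5.29 in YFP-negative arrays. All YFP-positive arrays were higher, by 4.15 ± 0.46 or 17.7-fold (limma, adjusted p = 0.00806). Cavin3, a cavin that binds protein kinase C delta, measured 8.67, 9.15 and 7.61 in YFP-positive arrays, against 5.22, 4.76 and 4.59 in YFP-negative arrays. Its groups were equally separate, with a difference of 3.62 ± 0.41 or 12.3-fold (limma, adjusted p = 0.00832). Both kept their calls whichever array was dropped (adjusted p up to 0.0428 for Cavin2 and 0.0440 for Cavin3), and both lost them in the unmoderated model (adjusted p = 0.0908 and 0.0913).

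Cavin1, the cavin needed for all caveolae, measured 5.66, 5.36 and 5.07 in YFP-positive arrays, against 4.83, 4.15 and 4.76 in YFP-negative arrays. The groups did not overlap, but the difference of 0.78 ± 0.24 did not pass (limma, adjusted p = 0.158). The muscle forms Cav3 and Cavin4 and the relatives Pacsin1 and Pacsin3 had differences between -0.06 and 0.12. Cavin2 and Cavin3 thus had differences above 3.6 and Cav1 and Cavin1 differences under 1, and no test compared these genes with each other.

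**Figure D2:**
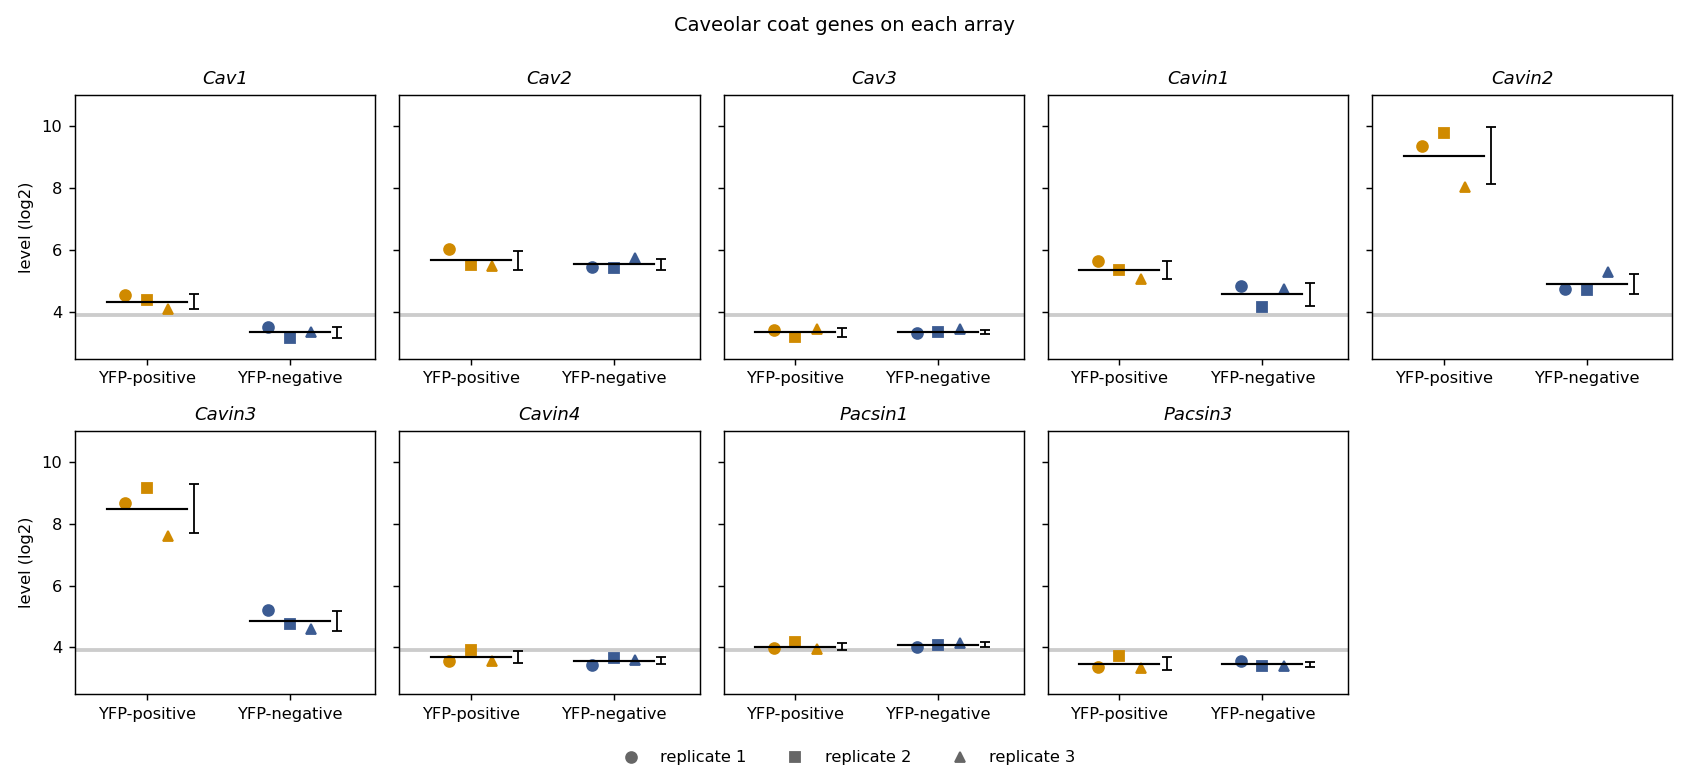
Log2 level (vertical axis) of caveolin, cavin and Pacsin genes on each array, YFP-positive left and YFP-negative right, with the mean, 1 SD (n = 3) and the arrays' median gene as the grey band. Cavin2 and Cavin3 lie between 7.61 and 9.77 in YFP-positive and between 4.59 and 5.29 in YFP-negative arrays, while Cav2 overlaps.

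Of the 4 EHD paralogs, Ehd2 rose, and Ehd1, Ehd3 and Ehd4 did not pass. Windows before the starts of 3 of them are shown because these paralogs had differences of different size and sign. The promoter set held no window for Ehd1, nor for Plvap. Again they are the 250 bases before the RefSeq start in GRCm38.p6, on the gene's strand, with GGAA and TTCC in capitals.
Ehd2, chr7:15967536-15967785, minus strand: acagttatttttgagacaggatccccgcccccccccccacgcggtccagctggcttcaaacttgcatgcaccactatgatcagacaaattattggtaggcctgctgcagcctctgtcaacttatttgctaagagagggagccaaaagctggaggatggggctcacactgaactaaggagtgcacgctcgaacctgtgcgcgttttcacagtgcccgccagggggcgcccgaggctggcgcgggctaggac
Ehd3, chr17:73804591-73804840, plus strand: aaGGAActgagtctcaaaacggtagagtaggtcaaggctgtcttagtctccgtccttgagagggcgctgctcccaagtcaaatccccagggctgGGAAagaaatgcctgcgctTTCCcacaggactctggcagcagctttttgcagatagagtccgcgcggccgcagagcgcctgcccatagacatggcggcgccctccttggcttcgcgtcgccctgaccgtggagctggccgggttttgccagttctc
Ehd4, chr2:120154576-120154825, minus strand: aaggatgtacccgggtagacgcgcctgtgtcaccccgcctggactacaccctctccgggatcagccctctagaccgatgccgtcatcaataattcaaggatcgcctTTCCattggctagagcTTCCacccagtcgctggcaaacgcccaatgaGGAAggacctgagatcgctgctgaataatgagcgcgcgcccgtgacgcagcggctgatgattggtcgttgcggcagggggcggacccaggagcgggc
The ETS core had 0 matches before Ehd2, 3 before Ehd3 and 3 before Ehd4. The window of Ehd2, the paralog that rose, is thus among the few without these letters, since 93.4% of all windows hold them, and this says nothing of the factor or of sequence elsewhere. GGGCGG, the GC box, had 1 match before Ehd2 and 1 before Ehd4 on either strand (32.7% of all windows hold it). CCAAT had 1 match before Ehd2 and 3 before Ehd4 (33.8% of all windows hold it).

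Ehd2 measured 5.85, 6.50 and 5.65 on the YFP-positive arrays, against 3.98, 3.54 and 4.38 in YFP-negative replicates. The groups were separate, with the YFP-negative values near the median gene. Its mean was 6.0 ± 0.45 over the YFP-positive and 3.97 ± 0.42 over the YFP-negative arrays (SD, n = 3 each), so that it was higher by 2.03 ± 0.30 or 4.09-fold (limma, adjusted p = 0.0196). Dropping YFP-positive replicate 1, YFP-negative replicate 1 or YFP-negative replicate 2 ended the call of Ehd2 (adjusted p = 0.0249 to 0.0771 over the 6 fits), and so did the unmoderated model (adjusted p = 0.130).

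Ehd3, an EHD protein of early and recycling endosomes, measured 5.62, 6.35 and 4.41 in YFP-positive arrays, against 3.79, 3.59 and 3.68 in YFP-negative arrays. Every YFP-positive array was higher, yet they spanned nearly 2 log2 units, and the YFP-negative values lay below the median gene. The difference of 1.77 ± 0.47 did not pass (limma, adjusted p = 0.109). It passed without YFP-positive replicate 3, the lowest of its population, at 2.30 and adjusted p = 0.00983.

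Ehd1, the best studied EHD protein of the recycling route, had 2 probes. The brighter one measured 9.59, 10.2 and 9.41 in YFP-positive arrays, against 6.98, 7.34 and 10.3 in YFP-negative arrays. YFP-negative replicate 3 was the highest of all 6 arrays, and the other 2 YFP-negative arrays were the lowest. The difference of 1.55 ± 0.87 did not pass (limma, adjusted p = 0.461), with a 95% interval of -0.57 to 3.67. Without YFP-negative replicate 3 it was 2.58 and passed (adjusted p = 0.0229). On that same array the neutrophil granule genes were also at the top of the YFP-negative samples, with a summed level of 19112 against 5075 and 8134 in the other 2. YFP-positive replicate 3 had the highest such sum of all 6 arrays, 22119, but the lowest Ehd1 value of its population, 9.41. The part of these genes' cells in the Ehd1 values was not tested. The other Ehd1 probe measured 6.58, 6.08 and 6.30 in YFP-positive arrays, against 5.52, 5.46 and 5.95 in YFP-negative arrays. Its groups did not overlap, and its difference of 0.68 ± 0.20 did not pass either (limma over 23521 probes, adjusted p = 0.138). The probes gave the same sign but unlike sizes, 2.93-fold and 1.6-fold.

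**Figure D3:**
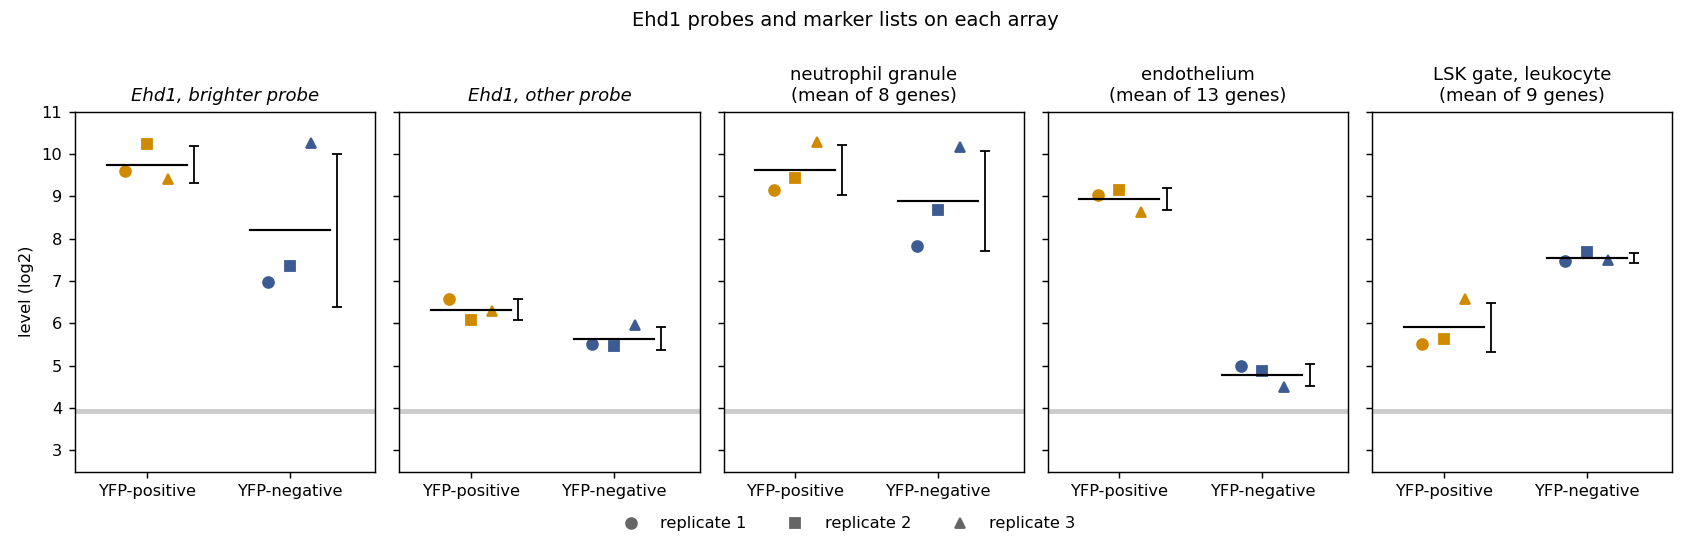
Log2 level (vertical axis) on each array of both Ehd1 probes and the mean log2 level of 3 marker lists, YFP-positive left and YFP-negative right, with mean, 1 SD (n = 3) and the grey band of the median gene. YFP-negative replicate 3 (triangle) is high in the brighter Ehd1 probe and in the neutrophil granule genes, and low in the endothelial genes. YFP-positive replicate 3 is highest in the neutrophil granule genes but lowest of its population in the brighter Ehd1 probe.

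Ehd4, which acts in the uptake and sorting of surface receptors, measured 5.13, 4.64 and 5.54 in YFP-positive arrays, against 5.91, 5.32 and 5.66 in YFP-negative arrays. It was the member with a difference below 0, at -0.52 ± 0.27, but the groups overlapped and it did not pass (limma, adjusted p = 0.403, 95% interval -1.17 to 0.12). The profiles most like it were those of Fosb, a subunit of AP-1, E2f5, a cell cycle transcription factor, and Cox10, an enzyme of haem A synthesis, with root mean square differences of 0.09, 0.10 and 0.11. These 3 had differences of -0.46, -0.60 and -0.42 and did not pass (limma, adjusted p = 0.462, 0.347 and 0.467). They were picked for likeness to Ehd4 on these same arrays, so such values follow from the choice.

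The 6 pairs of EHD paralogs were compared through their log2 ratio on each array. The ratio of Ehd2 to Ehd4 was 0.72, 1.86 and 0.11 in YFP-positive arrays, against -1.93, -1.78 and -1.27 in YFP-negative arrays, a shift of 2.56. The ratio of Ehd3 to Ehd4 shifted by 2.30, and its groups were separate too. The groups of the other 4 ratios overlapped. With 3 against 3 arrays the exact two-sided permutation test cannot go below p = 0.1, which both separate pairs reached (adjusted p = 0.3 over the 6 pairs), so no pair passed. Ehd2 and Ehd3 had a ratio shift of 0.26 (exact permutation p = 0.6).

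Pacsin2, the membrane-bending partner of EHD proteins and caveolae, measured 4.14, 4.16 and 4.43 in YFP-positive arrays, against 4.25, 4.16 and 4.18 in YFP-negative arrays. The difference of 0.05 ± 0.12 (limma, adjusted p = 0.898) had a 95% interval of -0.24 to 0.34. All 6 values lay between percentiles 54.3 and 60.5 of all genes on their arrays. At levels this near the median gene a change could go unseen.

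Within the YFP-positive population, replicate 3 was the lowest for 6 of the 8 genes, Plvap, Cav1, Cav2, Ehd1, Ehd2 and Ehd3, as it was for 40.3% of all genes and for 11 of the 13 endothelial markers. Ehd4 and Pacsin2 were highest there. On the same array Ptprc (9.52) and the neutrophil granule genes (22119 summed, against 11017 and 13272) were the highest of the YFP-positive samples. The part of these cells in the lower values was not tested. Without that array 4 of the 8 genes rose, Plvap, Cav1, Ehd2 and Ehd3, and 3.01% of all genes rose in the same fit.

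Genes of other coats and of endosomes were measured beside them. Of 5 flotillins and dynamins, Flot2, a scaffold of membrane domains outside caveolae, rose by 0.85 ± 0.17 (limma, adjusted p = 0.0465), and 4 did not pass. It measured 6.66, 6.29 and 6.08 in YFP-positive and 5.45 to 5.56 in YFP-negative arrays. Dnm2, the dynamin that cuts vesicles from the membrane in most cells, measured 8.31, 7.22 and 7.67 in YFP-positive and 6.80 to 7.01 in YFP-negative arrays without passing (difference 0.84, adjusted p = 0.185). The median difference of the 5 was 0.28, and 2.88% of all genes rose. Dropping any array other than YFP-positive replicate 3 ended the call of Flot2 (highest adjusted p = 0.144).

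Of 11 genes of clathrin coats and the AP-2 adaptor, the main other route of uptake, 3 rose and 8 did not pass, and all 11 differences were above 0 (median 0.57). Of all genes, 2.88% rose and 48.7% had a difference above 0. Cltc, the clathrin heavy chain, measured 8.58, 8.63 and 8.34 in YFP-positive arrays, against 7.39, 6.88 and 7.18 in YFP-negative arrays. It was 2.58-fold higher (1.37 ± 0.17, limma adjusted p = 0.0111) and passed whichever array was dropped, but lost its call in the unmoderated model (adjusted p = 0.0811) and without replicate 3 of both populations (adjusted p = 0.0541). Ap2s1, the small subunit of AP-2, was 2.18-fold higher (limma, adjusted p = 0.0412) and Epn2, an epsin that helps to bend clathrin-coated membrane, 1.76-fold higher (limma, adjusted p = 0.0144). Ap2s1 kept its call without YFP-positive replicate 3 but lost it without each other array (highest adjusted p = 0.136), and the call of Epn2 ended when any YFP-negative array was dropped (adjusted p up to 0.0627).

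Of 17 measured genes for recycling endosome partners of the EHD proteins, 1 fell and 16 did not pass, with a median of 0.01. Rab4a, a GTPase of fast recycling, was the gene that fell, with 6.74, 6.69 and 7.01 in YFP-positive arrays, against 7.77, 7.44 and 7.87 in YFP-negative arrays. It was 1.84-fold lower (-0.88 ± 0.16, limma adjusted p = 0.0386), and 1.96% of all genes fell. Rab4a kept its call without YFP-positive replicate 3 and lost it without each other array (highest adjusted p = 0.130). Rab5c, a GTPase of early endosomes, measured 0.70 higher and did not pass (adjusted p = 0.105). Rab11a, of the recycling compartment where EHD1 acts, measured 7.28, 8.05 and 7.43 in YFP-positive arrays and 6.81, 7.65 and 7.34 in YFP-negative arrays, which overlapped.

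**Figure D4:**
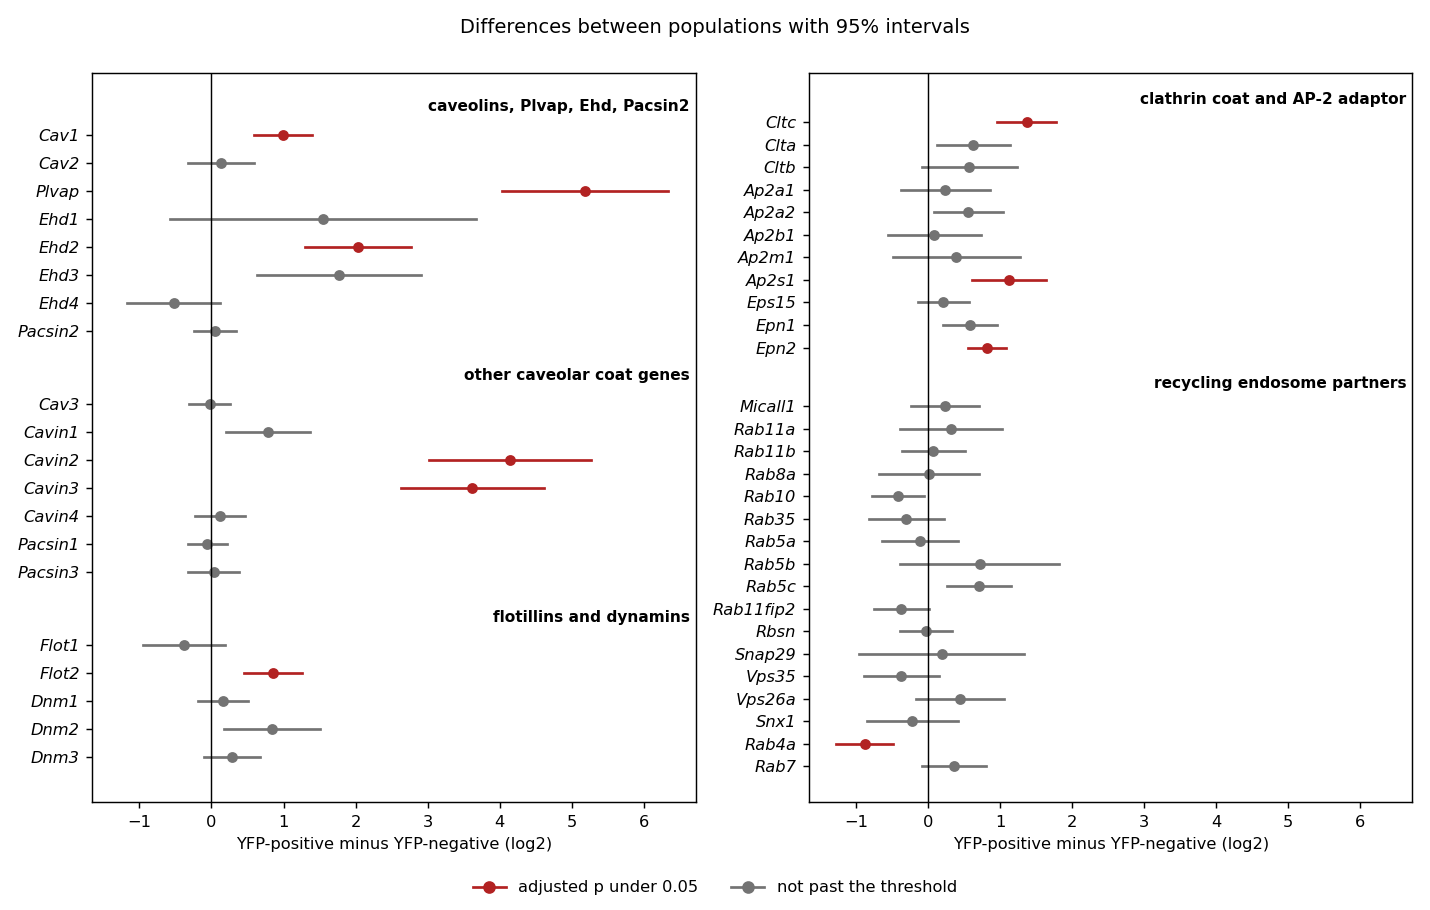
YFP-positive minus YFP-negative difference (horizontal axis, log2) with its 95% interval for each of the 8 genes and of the 4 other gene lists, in red where the adjusted p of limma was under 0.05. Plvap (5.19), Cavin2 (4.15) and Cavin3 (3.62) lie far to the right, and the recycling endosome genes scatter around 0 with Rab4a (-0.88) at the left.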

How the data were processed

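The authors deposited log2 values of 41345 probes on 6 arrays, all of which were used. The input was 500 pg of total RNA, and 3.6 µg of amplified DNA was labelled with biotin, per the labels' protocols. Partek is named per the submitters' processing notes, without a version. The sources used here do not give the background correction, summarisation or normalization. That the scale is log2 was read from the values. Array medians over all probes were 3.62 to 3.68. No detection calls were used, and the number of arrays limits the precision.

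Of 25335 annotated probes, 23521 had 1 gene symbol, and 22180 genes remained after keeping the probe with the highest mean. The identifiers of all 118 listed genes with a value were in RefSeq's table, with 0 changed symbols. The members and lists were chosen with earlier results of these data known. No set test was run. limma 3.58.1 in R 4.3.3 (lmFit, eBayes, two-sided, population as the only term) tested all genes at an adjusted p of 0.05. On simulated arrays it recovered 75% of 100 genes with a true log2 difference of size 2 and 95% of 100 at size 4. There were 5 false calls. Smaller true differences were not simulated. Genes named beside the 8 were those of 4 lists that passed, up to 3 others per list of smallest p, and 3 nearest profiles each for Plvap, Cav1 and Ehd4. Cxcl12, Adipoq, Lepr, Pdgfrb, Cd79b, Vcam1, Kit, Ptprc, Rab11a, Cav3, Pacsin3 and a few dim markers were named outside that rule. Ehd paralog pairs had an exact permutation test. 13 alternatives were planned and 2 added after seeing the data.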

Additional observations from a re-analysis of the deposited data

How the results depend on the processing

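The alternatives were the mean of a gene's probes, quantile normalization, median centring, genes above the median level, a variance trend, an unmoderated model, a replicate block, leaving out each array, and, added after seeing the data, the other Ehd1 probe and leaving out replicate 3 of both populations. Cav1 is absent from the filtered fit, being below the median level. Paralog pairs were not run under the settings that leave single values unchanged or filter genes. The labels do not say whether same-numbered arrays belong together. Deviations from the group means of same-numbered arrays correlated at 0.10, 0.08 and 0.17, and each YFP-positive array correlated best with its own number. These values do not settle whether the arrays are paired. With the replicate block Cav1 (0.99, adjusted p = 0.0655) and Ehd2 (2.03, adjusted p = 0.0792) did not pass, leaving 1 of the 8 genes, 412 genes higher and 168 lower in all (639 and 435 without the block), 0 flotillins and dynamins, 1 clathrin gene and 0 recycling genes lower. The unmoderated model called 0 of the 8, with Cav1 at 0.99, Plvap at 5.19 and Ehd2 at 2.03 as before, 145 genes higher and 35 lower, 1 clathrin gene (Epn2) and 0 in the other 3 lists. Flotillins and dynamins also had 0 calls, and recycling genes 0 lower, with quantile normalization and the variance trend, and the trend left 1 clathrin gene. Without replicate 3 of both populations Cav1 was 1.13 (adjusted p = 0.0677), Ehd1 2.76 (0.0251), Ehd3 2.30 (0.0379) and Pacsin2 -0.051, with 0 calls among clathrin, flotillin and recycling genes, and Pacsin1 turned to 0.017. Pacsin2 was also -6.61e-05 with quantile normalization.

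Over the 6 fits that left out 1 array, Cav1 ranged from 0.89 to 1.12, Cav2 from -0.044 to 0.23, Ehd1 from 0.94 to 2.58, Ehd2 from 1.78 to 2.24, Ehd3 from 1.33 to 2.30, Pacsin2 from -0.043 to 0.10 and Cavin4 from -8.33e-05 to 0.18. The 8 genes gave 1 to 4 calls, all genes 319 to 668 higher and 111 to 517 lower, clathrin genes 1 to 3, flotillins and dynamins 0 to 1, recycling genes 0 to 1 in each direction, and separate paralog pairs 2 to 4. Fits with fewer arrays have fewer degrees of freedom, and the other causes were not tested.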
